A study of Rattus norvegicus with 11 samples.

Results

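The features described here are 56 of 45220 numbered spots of a rat gene expression array that were higher in the hippocampus of rats with an implanted electrode than in unoperated rats, and that stood at about the same level whether or not the electrode delivered current. They were chosen from the measured values themselves, by the means of the DBS, sham and naive arrays: sham minus naive of at least 0.4 on the log2 scale, DBS minus sham below 0.15 in size, and every DBS and sham array above every naive array. With near-identical rows merged, the 56 features formed 46 distinct profiles. The differences between groups given below are therefore a description of how the features were chosen, with no test.

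Deep brain stimulation (DBS) delivers electrical pulses through an electrode in a deep nucleus. In this study the electrode lay in the ventrolateral thalamus, which relays motor signals to the cortex, while RNA was measured in the hippocampus, a region known for memory and for generating new neurons in its dentate gyrus. A sham operation, in which the electrode is placed and never switched on, is the usual control in such work, because passing an electrode through brain tissue is known to activate astrocytes and microglia around its track and can change tissue on its own. A naive group then shows where the operated animals stand relative to animals without surgery.

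All rats were male albino Wistar rats aged 12 weeks. The DBS rats were stimulated for 1 hour a day over 14 days (4 arrays), the sham rats had electrodes without stimulation (4 arrays), and the naive rats were handled alike without an operation (3 arrays, although the labels number them as replicates of 4). Each array measured hippocampi pooled from 3 rats, labelled with Cy5, against the same Cy3-labelled reference pool of hippocampus, thalamus and cortex from 4 naive, 5 sham-operated and 4 stimulated rats. A value is the deposited log ratio of an array, taken as log2, and values above 0 are read as more RNA in the hippocampus than in the reference. Neither the log base nor the direction is stated in the labels, and the direction follows the order in which they name the samples. In such pooled tissue, fewer cells of a type and less RNA per cell cannot be told apart. The numbered rows could not be tied to the genes of the platform annotation, so no gene is named, the tissue could not be checked on marker genes, and profiles are called by their rank in sham minus naive.

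Over the whole table, the array medians lay between -0.00589 and 0.00535, and all 55 pairs of arrays correlated positively over the features (0.732 to 0.932). No library could be tested for batch, since the sources used here give neither slides nor scans.

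Across the 56 features the operated groups stood close to the level of the mixed brain reference, and the naive group stood below it. The reference held 5 sham-operated and 4 stimulated rats beside 4 naive ones. Where a group stands relative to it therefore also depends on that mix. The median over features of the group mean was -0.00314 in DBS, -0.076 in sham and -0.627 in naive. Sham minus naive had a median of 0.505 (range 0.404 to 0.918), a 1.42-fold higher level in sham, and the highest member was 1.89-fold higher. DBS minus naive had a median of 0.587 (range 0.332 to 0.962), or 1.5-fold. Over all features of the table the medians were -0.007 for sham minus naive and -0.0161 for DBS minus naive. The changes were therefore moderate in size: 30 of the 56 features differed by 0.5 or more between sham and naive, and 12 by 0.6 or more.

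**Figure D1:**
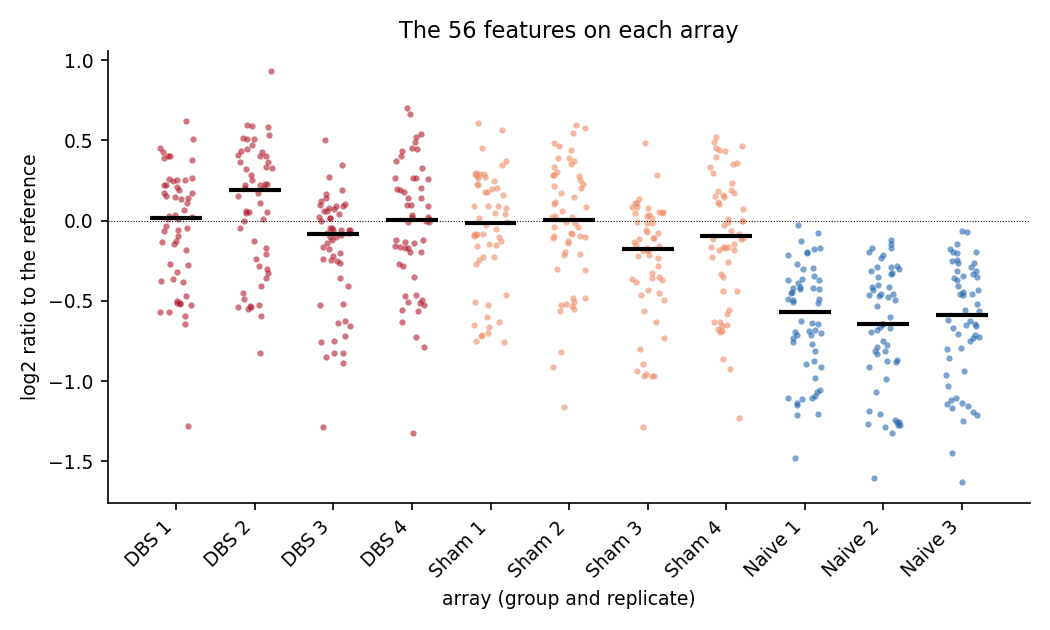
Log2 ratio to the reference of each of the 56 features (points) on each array, with the median over the features as a black bar. The medians lie between -0.177 and 0.189 on the DBS and sham arrays and between -0.644 and -0.57 on the naive arrays, and the DBS and sham arrays numbered 3 have the lowest median of their groups.

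The naive arrays were all below 0, that is below the reference, for each of the 56 features; over all features this was so for 33%. It is not particular to the members: among the 357 features described below that DBS raised further than sham, 349 (97.8%) had all naive arrays below 0. In 9 features (16.1%) all DBS and sham arrays lay above 0 and all naive arrays below it. This was so for 11.2% of the 357 and 0.327% of all features. In these 9 the operated pools exceeded the mixed brain reference and the naive pools fell short of it. In another 14 features (25%) every one of the 11 arrays lay below 0, near the 19.1% of all features. No member lay above 0 on all arrays, against 0.56% of the 357 and 17.8% of all features. The remaining members had naive arrays below 0 and operated arrays on both sides of it.

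The largest difference belonged to feature 12524, which was also the least even. Its log2 ratios were -0.32, -0.30, 0.50 and -0.56 on DBS arrays 1 to 4, 0.61, -0.14, -0.63 and -0.69 on sham arrays 1 to 4, and -1.07, -1.18 and -1.14 on naive arrays 1 to 3. The DBS arrays averaged -0.17 ± 0.46 (SD, n = 4), sham -0.21 ± 0.60 (SD, n = 4) and naive -1.13 ± 0.06 (SD, n = 3). All operated arrays were above the naive ones, but DBS array 3 and sham array 1 stood far above the rest of their groups, and sham minus naive was 0.92 with an SE of 0.29.

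Feature 12087 showed the cleanest separation of the set. It read 0.27, 0.05, 0.19 and -0.01 on the DBS arrays, 0.09, 0.12, 0.05 and 0.07 on the sham arrays, and -0.69, -0.79 and -0.80 on the naive arrays. The lowest operated array exceeded the highest naive array by 0.69, the widest gap among the 46 profiles. DBS averaged 0.13 ± 0.13 (SD, n = 4), sham 0.08 ± 0.03 (SD, n = 4) and naive -0.76 ± 0.06 (SD, n = 3). Sham minus naive was thus 0.84 (SE 0.06), a 1.79-fold higher level in sham, and DBS minus sham was 0.04 (SE 0.06).

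In the third profile the DBS arrays read 0.22, 0.36, -0.20 and 0.14, the sham arrays -0.09, 0.15, -0.23 and 0.16, and the naive arrays -0.73, -0.81 and -0.62. Array 3 was the lowest of both operated groups. The fourth profile, at 0.38, 0.51, 0.12 and 0.70 in DBS, 0.26, 0.55, 0.05 and 0.44 in sham and -0.37, -0.33 and -0.33 in naive, had the same low arrays. So did the fifth, at 0.40, 0.59, 0.08 and 0.45 in DBS, 0.29, 0.28, 0.09 and 0.36 in sham and -0.50, -0.40 and -0.35 in naive. These 3 profiles were above the reference on most operated arrays and below it on every naive array. Their sham minus naive differences were 0.72, 0.67 and 0.67, and DBS stood above sham by 0.13, 0.10 and 0.13.

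The sixth profile stayed below the reference on nearly all arrays. Its values were -0.14, 0.15, -0.25 and -0.17 in DBS, -0.25, -0.21, -0.33 and -0.17 in sham, and -0.87, -0.91 and -0.86 in naive, and only DBS array 2 was above 0. The seventh profile merged 2 rows whose values differed by a mean SD of 0.0342. Its mean was 0.15 ± 0.20 over the 4 DBS arrays, 0.18 ± 0.08 over the 4 sham arrays and -0.45 ± 0.05 over the 3 naive arrays (SD). Here DBS lay slightly below sham, by 0.03, and the DBS mean was carried by arrays 1 and 2 at 0.19 and 0.42, with arrays 3 and 4 at -0.0007 and 0.0071.

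The eighth profile met the rule through 1 naive array. It read -0.10, -0.17, -0.10 and -0.16 in DBS, -0.14, -0.01, 0.03 and -0.0026 in sham, and -0.19, -0.17 and -1.63 in naive. Naive arrays 1 and 2 lay just below the DBS arrays, and the lowest operated array exceeded the highest naive array by 0.000656. Without naive array 3, sham minus naive was 0.148 instead of 0.63, and DBS minus naive was 0.0498. The range of the naive arrays was 1.46 here, 0.447 in the next widest member and 0.126 in the median member.

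Profiles 9 and 10 again had low values on array 3 of both operated groups. The ninth read 0.46, 0.51, 0.11 and 0.45 in DBS, 0.37, 0.60, 0.08 and 0.47 in sham and -0.17, -0.29 and -0.25 in naive; its DBS and sham means of 0.38 and 0.38 were the closest of the leading profiles. The tenth read 0.25, 0.21, -0.09 and 0.26 in DBS, 0.08, 0.30, -0.19 and 0.19 in sham and -0.49, -0.60 and -0.46 in naive. A different array stood out in the eleventh profile, a merged pair at -0.17, 0.22, -0.15 and -0.16 in DBS, -0.14, -0.10, -0.22 and -0.18 in sham and -0.76, -0.84 and -0.68 in naive: DBS array 2 was its sole value above 0. The twelfth profile had the highest DBS mean and the highest sham mean of the set, at 0.62, 0.93, 0.27 and 0.67 in DBS, 0.56, 0.57, 0.29 and 0.52 in sham and -0.13, -0.15 and -0.06 in naive.

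**Figure D2:**
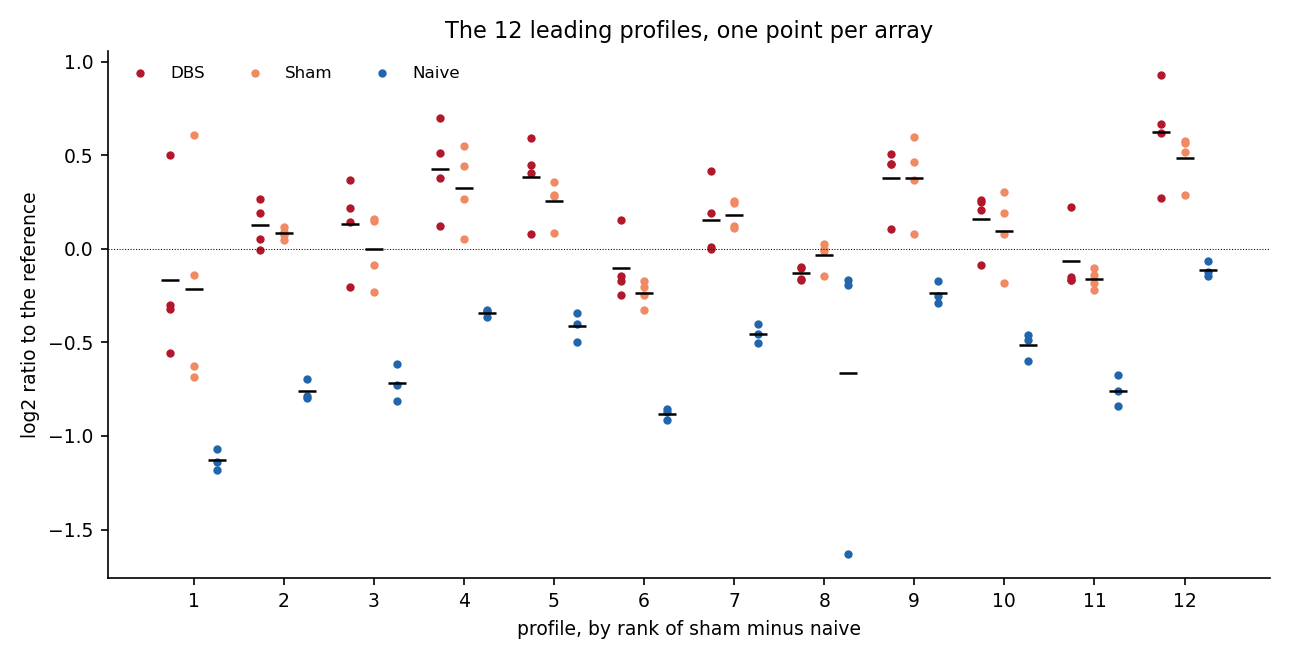
Log2 ratio to the reference on each array (points) and group mean (bars) for the 12 profiles with the largest sham minus naive difference, with DBS, sham and naive side by side. Profile 2 has the widest gap between operated and naive arrays (0.69), and in profile 8 naive array 3 at -1.63 lies far below the other naive arrays.

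The other 34 profiles differed by 0.40 to 0.60 between sham and naive. Repeated rows were few: 40 profiles held 1 row, 5 held 2 rows and 1 held 6 rows. The set of 6 rows, ranked 29th, was below the reference on every array. Its mean read -0.52, -0.54, -0.82 and -0.48 on the DBS arrays, -0.68, -0.51, -0.95 and -0.65 on the sham arrays, and -1.13, -1.26 and -1.14 on the naive arrays. The rows differed from each other by a mean SD of 0.0413, while DBS minus sham was 0.11 and sham minus naive 0.48 for their mean. Array 3 was the lowest in both operated groups here as well. Another 2 rows of the table lay within the merging distance of all 6 rows and were left out by the rule, with DBS minus sham of 0.155 and 0.17, so the rule cut through a group of near-identical rows. For 35 of the 56 members no other row of the table lay within the merging distance of 0.3 over the 11 arrays, and 29 rows outside the set lay that close to a member.

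**Figure D3:**
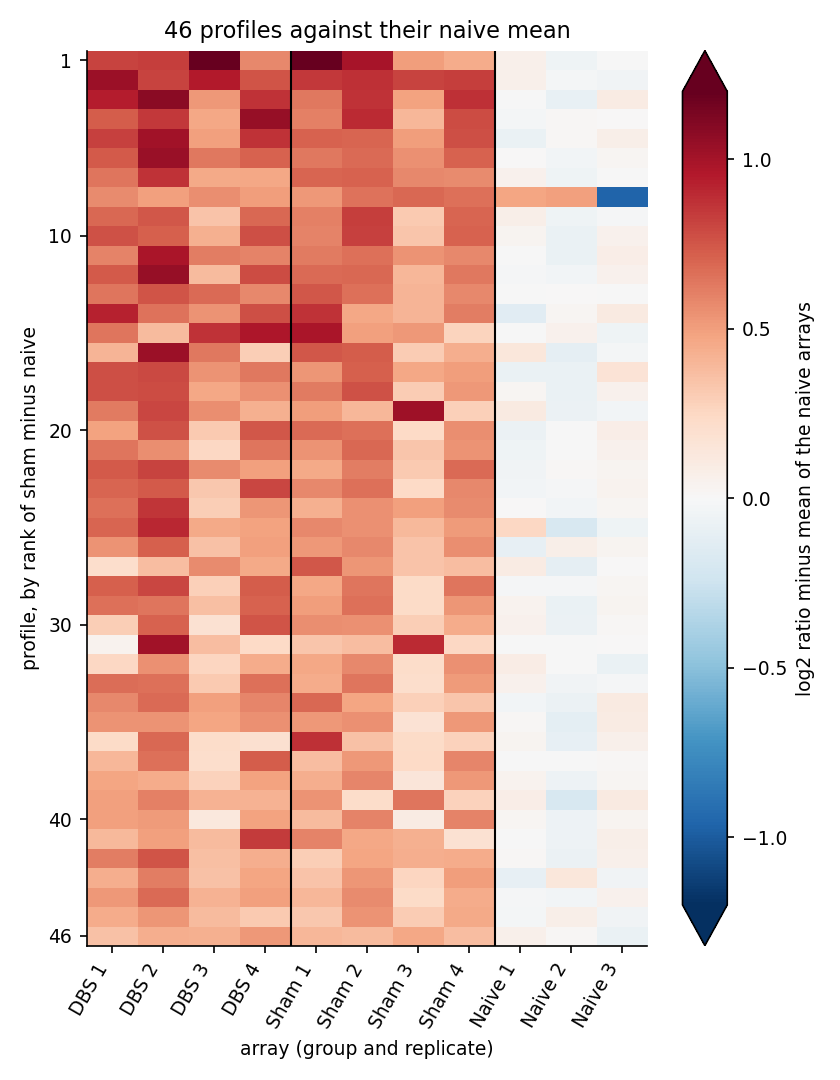
Log2 ratio minus the mean of the naive arrays for the 46 profiles (rows, by rank of sham minus naive) on the 11 arrays (columns); red is above the naive mean and blue below it. Over the members the median is highest on DBS 2 (0.708) and lowest on Sham 3 (0.322) among the operated arrays, and row 8 has a blue cell at Naive 3.

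The limits of the rule passed through a continuum of values. Members nearest to the sham minus naive limit stood at 0.4044 and 0.4051, and the nearest rows outside it at 0.3997 and 0.3991. At the DBS minus sham limit the values were 0.1486 and 0.139 inside against 0.1508 and 0.1513 outside. The smallest gaps between operated and naive arrays were 0.000656 and 0.0313, and the nearest rows outside overlapped by a gap of -0.0628 and -0.0856. With both limits on means and no demand on overlap the table held 74 rows, of which 18 had an overlap.

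DBS and sham arrays overlapped in all 56 features, which the limit on DBS minus sham makes likely, and in 90.6% of all features. DBS minus sham had a median of 0.0801. The DBS mean was above the sham mean in 46 features (82.1%, against 44.8% of all features). The limit on DBS minus sham treats both directions alike. The demand that every DBS array exceed all naive arrays left out 1 of the 57 rows that met the other limits. DBS minus sham in that row was -0.0528. Why the DBS mean was above the sham mean in most members was not tested. DBS minus sham was above 0.1 in 24 members, below -0.1 in 1 member and within 0.05 of 0 in 15 members. The arrays were too few to show that DBS and sham were equal. The SE of DBS minus sham had a median of 0.0949 (range 0.0488 to 0.266, limma), and the 95% interval had a median half-width of 0.206. That interval stayed within 0.15 of 0 for 2 members and reached further for the other 54, while it stayed within 0.4 of 0 for 51 members.

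In the limma fit over all 45220 features, 35 members in 29 profiles were called higher in sham than in naive at an adjusted p under 0.05, beside 0.734% of all features. For DBS against naive 51 members in 41 profiles were called higher, beside 4.6% of all features. All 35 were among the 51. For DBS against sham no member was called (lowest limma adjusted p = 0.432, and 0 members at an unadjusted p under 0.05), beside 2.82% of all features in either direction. The rule used these same contrasts, so the counts only describe how large the chosen differences were beside the spread. The 5 members called in neither comparison with naive included feature 12524 and the eighth profile, which had the largest SEs of the set. Operated arrays without overlap above the naive arrays, which the rule demands, occurred in 3.59% of all features. The count of 35 fell to 6, 7 and 9 without naive arrays 2, 1 and 3, and to 11, 12 and 12 without sham arrays 4, 1 and 2, while it was 23 without DBS array 1; the count of 51 ranged from 42 to 52 when single arrays were left out.

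Among features higher in sham than in naive, fewer were close in DBS and sham by the limit of 0.15 than stood higher in DBS. More were close than stood lower in DBS. The close class is bounded on both sides and the others are open-ended, so the counts depend on that limit. In 443 rows (327 profiles) sham minus naive was at least 0.4 and all sham arrays lay above all naive arrays. DBS stood a further 0.15 or more above sham in 357 of them (254 profiles), at least 0.15 below sham in 29 (27 profiles) and within 0.15 of sham in 57 (47 profiles). The remaining row of these 57 is not a member because a DBS array overlapped the naive ones. All of these comparisons share the sham arrays, so a high sham value in a row raises sham minus naive and lowers DBS minus sham together.

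**Figure D4:**
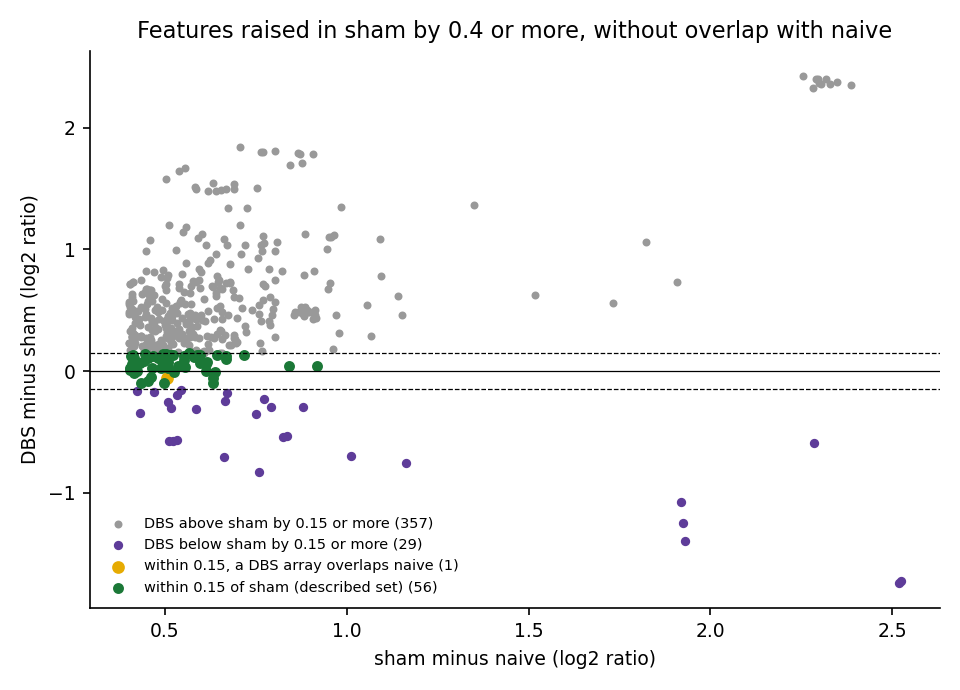
DBS minus sham against sham minus naive (log2 ratios) for the 443 features with a sham minus naive difference of at least 0.4 and no overlap of sham and naive arrays; dashed lines mark 0.15 above and below 0. The 56 described features lie between the lines, 357 features lie above them and 29 below.

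Members and the 357 features that rose further started from a similar naive level, with a median naive mean of -0.627 in members and -0.641 in the 357. Sham stood at -0.076 in members and -0.018 in the 357, and DBS at -0.00314 and 0.535. In members, all DBS arrays were above the reference for 15 of 56 features (26.8%, the same share as over all features), against 262 of the 357 features (73.4%). The 357 were chosen for a DBS mean at least 0.15 above sham. Their higher DBS values therefore follow from that choice and are a description. In both sets the operated arrays varied more than the naive ones. The median SD within a group was 0.176 in DBS, 0.171 in sham and 0.0649 in naive for members, and 0.207, 0.187 and 0.0734 for the 357; over all features it was 0.0834, 0.0738 and 0.0658. Members thus varied about as much as the median feature in naive rats and more than it in DBS and sham rats. Both sets had to show no overlap of sham with naive arrays, which passes rows with close naive values more readily. The choice can thus have a part in these SDs.

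The variation within the operated groups was shared between features. DBS array 3 was the lowest DBS array for 39 of 56 members (69.6%), against 24.6% of all features, and sham array 3 was the lowest sham array for 45 (80.4%), against 26.6%. Both were lowest together in 35 members (62.5%, 26 of the 46 profiles), against 6.53% of all features. At the other end, DBS array 2 was the highest of its group for 33 members and sham array 2 for 29. The median deviation from the group mean was 0.0246, 0.126, -0.151 and 0.0193 on DBS arrays 1 to 4, and 0.0164, 0.1, -0.188 and 0.0284 on sham arrays 1 to 4. Among the 357 features that rose further, sham array 3 was also the lowest sham array in 68.3%, and both arrays numbered 3 were lowest together in 124 (34.7%). DBS array 3 was the lowest DBS array in 36.4% of the 357 and the highest in 46.2%, so that the low array 3 was shared by some of these features.

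Deviations of pairs of members over the 8 operated arrays had a median correlation of 0.492 (56 features, 77.2% of pairs above 0). In the 357 features it was 0.331, and in every 60th row of the table -0.00108. The features share the same RNA pools and arrays, so these are descriptions across features. The sources used here do not say how the pools numbered 3 differed from the others, and the part of these arrays in the result is given next.

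Sham array 3 had a large part in which rows met the rule. Without it the rule found 136 rows, of which 50 were members, and without DBS array 3 it found 33 rows, of which 28 were members. With both left out it found 110 rows, of which 41 were members. With the 56 members kept as they were, leaving out both arrays gave a median sham minus naive of 0.579 and a median DBS minus sham of 0.0871, and 43 members stayed within the limit of 0.15. Across 11 selections that left out 1 array each, 13 members in 11 profiles met the rule every time. They include feature 12087, both rows of the seventh profile, the ninth and the tenth profile and 1 row of the eleventh. In these 13 members sham minus naive ran from 0.464 to 0.84 (median 0.596) and DBS minus sham from -0.0535 to 0.0743 (median 0.0295). Another 11 members were lost in 4 or more of these selections.

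Values that the choice had not used came from the array left out in each of these selections. They ask whether features chosen on 10 arrays show the same difference on an array that had no part in choosing them. The arrays of the group it is set against did have a part. Those arrays were chosen to lie low, or high for an unused naive array. This by itself raises the shares above those of all features, by an amount that was not tested. On DBS array 1, 62 of 64 chosen features lay above all naive arrays, against 28.2% of all features. On DBS array 2 this held for 72 of 73, against 29.6%. On DBS array 3 it held for 33 of 33, against 26.4%, and on DBS array 4 for 65 of 67, against 26.1%. The DBS arrays thus stood above naive in nearly all features chosen without them.

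On sham array 1, all 55 chosen features lay above all naive arrays, against 27.5% of all features. Sham array 2 was above in 37 of 38, against 27.9%. On sham array 3 it was 122 of 136, against 27%, and on sham array 4 it was 49 of 58, against 25.1%. The misses were thus more frequent on sham arrays 3 and 4. The naive arrays were read the other way round: naive array 1 lay below all DBS and sham arrays in 60 of 73 chosen features, against 11.2% of all features. For naive array 2 this was 47 of 54, against 14.3%, and for naive array 3 it was 61 of 65, against 11.6%.

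The size of the difference on the unused arrays varied with the array. The median of the unused array minus the naive mean was 0.649, 0.76, 0.425 and 0.679 on DBS arrays 1 to 4, and 0.528, 0.573, 0.251 and 0.496 on sham arrays 1 to 4. For the naive arrays, the operated mean minus the unused array had a median of 0.462, 0.585 and 0.486. Over all features each of these medians lay between -0.0178 and -0.00326. Sham array 3 at 0.251 was the only array of the 11 below the limit of 0.4.

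**Figure D5:**
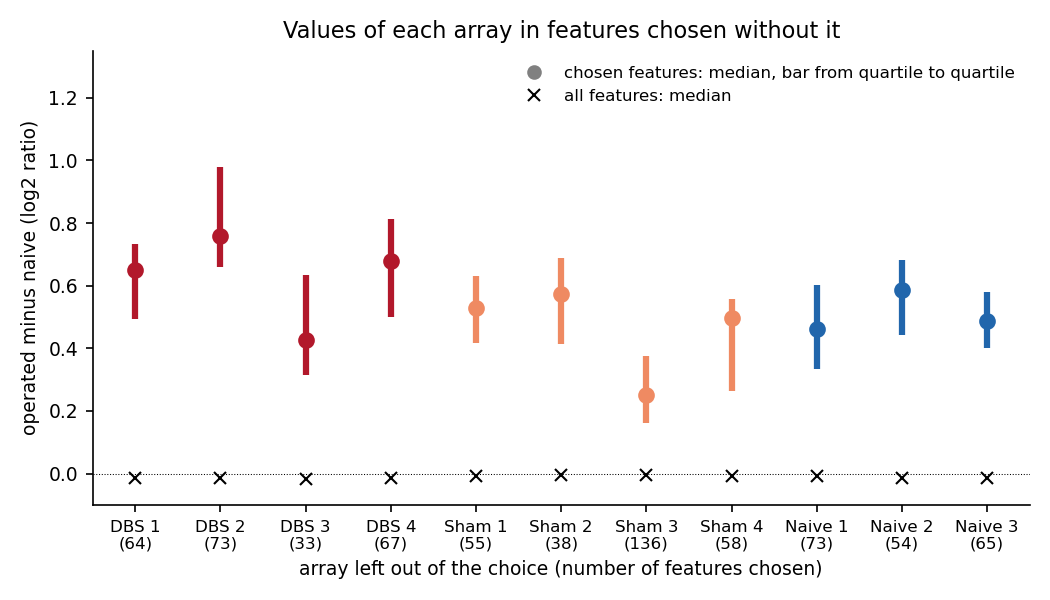
For each array, the difference between operated and naive (log2 ratio) in the features that the rule chose without it, as median (circle) and quartiles (bar), with the median over all features as a cross; the number of chosen features is in brackets. For DBS and sham arrays it is that array minus the naive mean, and for naive arrays the mean of DBS and sham minus that array. The circles lie between 0.251 (Sham 3) and 0.76 (DBS 2), and the crosses near 0.

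The closeness of DBS and sham carried over to unused arrays less often than the difference from naive. An unused DBS array lay within 0.15 of the sham mean for 29 of 64, 15 of 73, 16 of 33 and 26 of 67 chosen features on arrays 1 to 4, against 72.4 to 79.1% of all features. Its median distance from the sham mean was 0.117, 0.235, -0.0698 and 0.165. An unused sham array lay within 0.15 of the DBS mean for 34 of 55, 26 of 38, 12 of 136 and 31 of 58 chosen features, against 75.7 to 80.4% of all features, at a median distance of -0.0816, -0.00387, -0.341 and -0.126. The median SD within a group was 0.176 in DBS and 0.171 in sham for the members, above the limit of 0.15. These SDs are of members, while the 136 features chosen without sham array 3 included 50 members. How far the spread of single arrays accounts for the low shares was not tested. On 3 of the 4 unused DBS arrays the chosen features stood above the sham mean, and on 4 of the 4 unused sham arrays they stood below the DBS mean.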

How the data were processed

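The authors deposited 1 log ratio per numbered feature and array, taken as log2, for 11 two-colour arrays with the same dye orientation (per the labels: Cy5 hippocampal pool, Cy3 common reference). The sources used here do not give background correction, normalization or filtering. Per the labels, replicates are biological. The number of arrays limits the precision. The features and tests were chosen with earlier results of these data known. Annotation names were not used: for 3544 symbols with exactly 2 features, the mean log ratios of the 2 correlated at 0.0108 across symbols. Rows were merged by complete linkage at a Euclidean distance of 0.3 over the 11 arrays. Group means of all features were fitted together with limma 3.58.1 in R 4.3.3 (lmFit, eBayes, two-sided), and p-values were adjusted over all 45220 features by the Benjamini-Hochberg method; the fit and the rule were tested on simulated data. Profiles were ranked by sham minus naive, the first 12 and any of 3 or more rows were described, and feature numbers were printed for the first 2. Python 3.11.15, numpy 2.4.6, scipy 1.17.1, pandas 2.3.3 and matplotlib 3.10.9 were used. Alternatives were centring, quantile normalization, other limits, merging distances and linkage, a filter on SD, array weights, a block for the replicate number, robust eBayes, fits of only the groups compared and leaving out each array. Leaving out both arrays numbered 3 was added after seeing the data.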

Additional observations from a re-analysis of the deposited data

Results flagged for a closer look

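Within the DBS and sham groups, 28 groups of 4 arrays were examined for an array standing apart from the others. These covered the medians over the members, the 12 leading profiles and the set of 6 rows, and 3 groups were marked. Chance marks about 1 in 20 of independent groups. The groups here read the same 8 operated arrays, so their count cannot be judged against that rate. In the ninth profile DBS array 3 stood at 0.11 and the nearest DBS array at 0.45. In the tenth profile DBS array 3 stood at -0.0885 and the nearest DBS array at 0.21. In the eleventh profile DBS array 2 stood at 0.22 and the nearest DBS array at -0.15. The cause was not tested.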

How the results depend on the processing

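The number of features meeting the rule was 101 and 30 with the sham minus naive limit at 0.3 and 0.5, 31 with the DBS minus sham limit at 0.1, and 110 without both arrays numbered 3; it ran from 33 to 136 when single arrays were left out, lowest without DBS array 3 and highest without sham array 3. Centring, quantile normalization, a DBS minus sham limit of 0.2, allowing overlap with naive and the SD filter gave 53 to 80. The median sham minus naive of the members was 0.5793 without both arrays numbered 3 and 0.4827 to 0.5793 without single arrays, and DBS minus sham was 0.0304 to 0.1444. Leaving out single arrays gave 784 to 1297 called features (0 members each time) for DBS against sham, 2083 to 3717 (42 to 52 members) for DBS against naive, and 87 to 575 (6 to 44 members) for sham against naive. Array weights called 760 features for sham against naive, and fitting only the groups compared called 806 for DBS against sham; the cause was not tested. With the profiles counted once, the share above naive on unused sham array 2 was 100%. DBS minus sham, which was not called in any profile, took the opposite sign in 11 instances in 5 of the 12 leading profiles when single arrays were left out. In the first profile it was -0.1799, -0.0950 and -0.1139 without DBS array 3, sham array 3 and sham array 4 (0.0438 with all arrays), and the others were profiles 2, 7, 9 and 10, at -0.0977 to 0.0224. No other value changed sign. Over all features, the deviations of same-numbered arrays correlated between -0.122 and 0.15 in 10 pairs, 2 of them over 0.1. Over the members, the correlation of same-numbered DBS and sham arrays 1 to 4 was -0.274, -0.0716, 0.171 and 0.343. For same-numbered pairs with a naive array it ran from -0.237 to -0.0235. Both arrays numbered 3 were lowest together in 62.5% of members, against 6.53% of all features. With the replicate number as a block, the fit called 319 features and 26 members for sham against naive, 2807 and 49 for DBS against naive, and 892 and 0 for DBS against sham.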

Other observations

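The opposite pattern, features lower in DBS and sham than in naive by the mirrored rule, was found in 19 rows (16 profiles). The 56 members were spread over the row numbers, with 13, 20, 13 and 10 in 4 successive stretches of equal length. The members closest in row number were 4 rows apart and differed by a distance of 0.83 over the arrays, so they were not copies of each other.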
